A study of Mus musculus with 15 samples.

Results

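The genes described here make, break down and decorate sphingolipids in the mouse heart. A list of 39 genes was taken by symbol, with the older names Lass for the ceramide synthases and Fvt1 for *Kdsr*. All 39 were on the array, with 66 of its 41174 distinct probes. By the array's own gene names 37 were found, and *Sgms1* (there Tmem23) and *Sgms2* were added by alias and accession. At least 1 probe was bright enough to test for 37 genes. *Sgms2* and *Sgpp2* were too dim.

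Whole hearts of 3 groups were compared. Rosiglitazone-treated *db/db* mice received rosiglitazone, an agonist of the nuclear receptor PPARγ, mixed in their chow for 4 months. Untreated *db/db* mice were followed for the same time on plain chow. Both groups were C57BL/KLS mice homozygous for the db allele of the leptin receptor gene *Lepr*, the *db/+* mice were heterozygous littermates that carry 1 copy of it, and no group lacked the allele. Each group had 5 mice, and each array paired 1 heart labelled with Cy5 against a pooled mouse reference RNA labelled with Cy3. No source used here gives the age or sex of the mice. The deleted or altered part of *Lepr* cannot be placed against its dim probe, so *Lepr* (log2 difference -0.82 in untreated *db/db* against *db/+*, adjusted p = 0.154) checks no label.

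Ceramide stands at the centre of the pathway. Serine palmitoyltransferase starts its synthesis in the endoplasmic reticulum, and ceramide is then turned into sphingomyelin, into glycosphingolipids such as the sialic acid-bearing gangliosides, or, through sphingosine, into the signalling lipid sphingosine-1-phosphate. Sphingomyelinases, ceramidases and lysosomal glycosidases run the routes backwards. Ceramide is widely studied in the diabetic heart because muscle that takes up more fatty acid than it burns can store it in this form.

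Levels below are log2 ratios of heart to reference, so 0 means the same signal in both and each step of 1 is a doubling. Differences are between group means of these ratios. A gene was called when the adjusted p of limma, over all 27590 tested probes, was under 0.05, and the brightest tested probe stands for the gene. The arrays of treated replicates 3 and 4 were nearly the same in the heart channel (median absolute difference 0.114, against 0.232 to 0.568 for other pairs within a group), and they were averaged as 1 sample. The treated group therefore has 4 values, in the order replicate 1, replicate 2, replicates 3 and 4 averaged, and replicate 5. The other groups have 5 values, in replicate order. Because whole hearts were measured, fewer cells of a type and less RNA per cell cannot be told apart.

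The median heart signal was 245 to 317 on treated, 196 to 274 on untreated *db/db* and 166 to 269 on *db/+* arrays, and 66.9% to 72.3%, 61.9% to 76.1% and 56.9% to 72.1% of probes stood well above background in the same order. The groups also lay unevenly on the 4 slides. Slide 1 held 4 *db/+* hearts, slide 2 held 1 *db/+* and 3 untreated hearts, slide 3 held 2 untreated and 2 treated hearts, and slide 4 held 3 treated hearts. No slide held both treated and *db/+* hearts, so the within-slide values that follow come from slide 2 (untreated against *db/+*) and slide 3 (treated against untreated).

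In rosiglitazone-treated *db/db* against *db/+* hearts, 6 of the 37 genes were higher and 0 were lower. They were *Neu3*, *St3gal5*, *Sphk1*, *Smpd2*, *Smpd1* and *Asah2*, and their differences lay between 0.41 and 0.95. These are 16.2% of the genes, and over all tested probes 8.71% were called, 4.49% higher and 4.22% lower. Genes stand for their brightest probes, so all tested probes are not a like set. Of probes well above background in both channels on every array, 12.1% were called. The list also holds *St3gal5*, *Asah2*, *Cel* and *B4galnt1*, which the study picked on these same hearts, so its counts are no independent test. The median difference of the 37 genes was 0.113, against 0.00536 over all tested probes. When untreated *db/db* hearts were set against *db/+*, *Smpd2* and *Neu3* were higher and 0 genes were lower, or 5.41% of the genes against 7.76% of all probes (4.37% higher and 3.39% lower), and the median difference was 0.0807 against 0.0128. In treated against untreated *db/db* hearts 0 genes were called and 0% of all probes were, with medians of -0.00814 and -0.00948. At an unadjusted p under 0.05 in limma, 7 of the 37 genes passed in that last comparison (6 higher, 1 lower), against 8.78% of all probes. The 3 comparisons share groups, so their lists are not independent of each other. Among all arrays *db/+* replicate 3 had the lowest signal (median 166, with 56.9% of probes well above background). It held the lowest *db/+* value of *Neu3*, *Sphk1*, *Smpd2* and *Smpd1*, and the highest of *St3gal5* and *Asah2*.

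**Figure D1:**
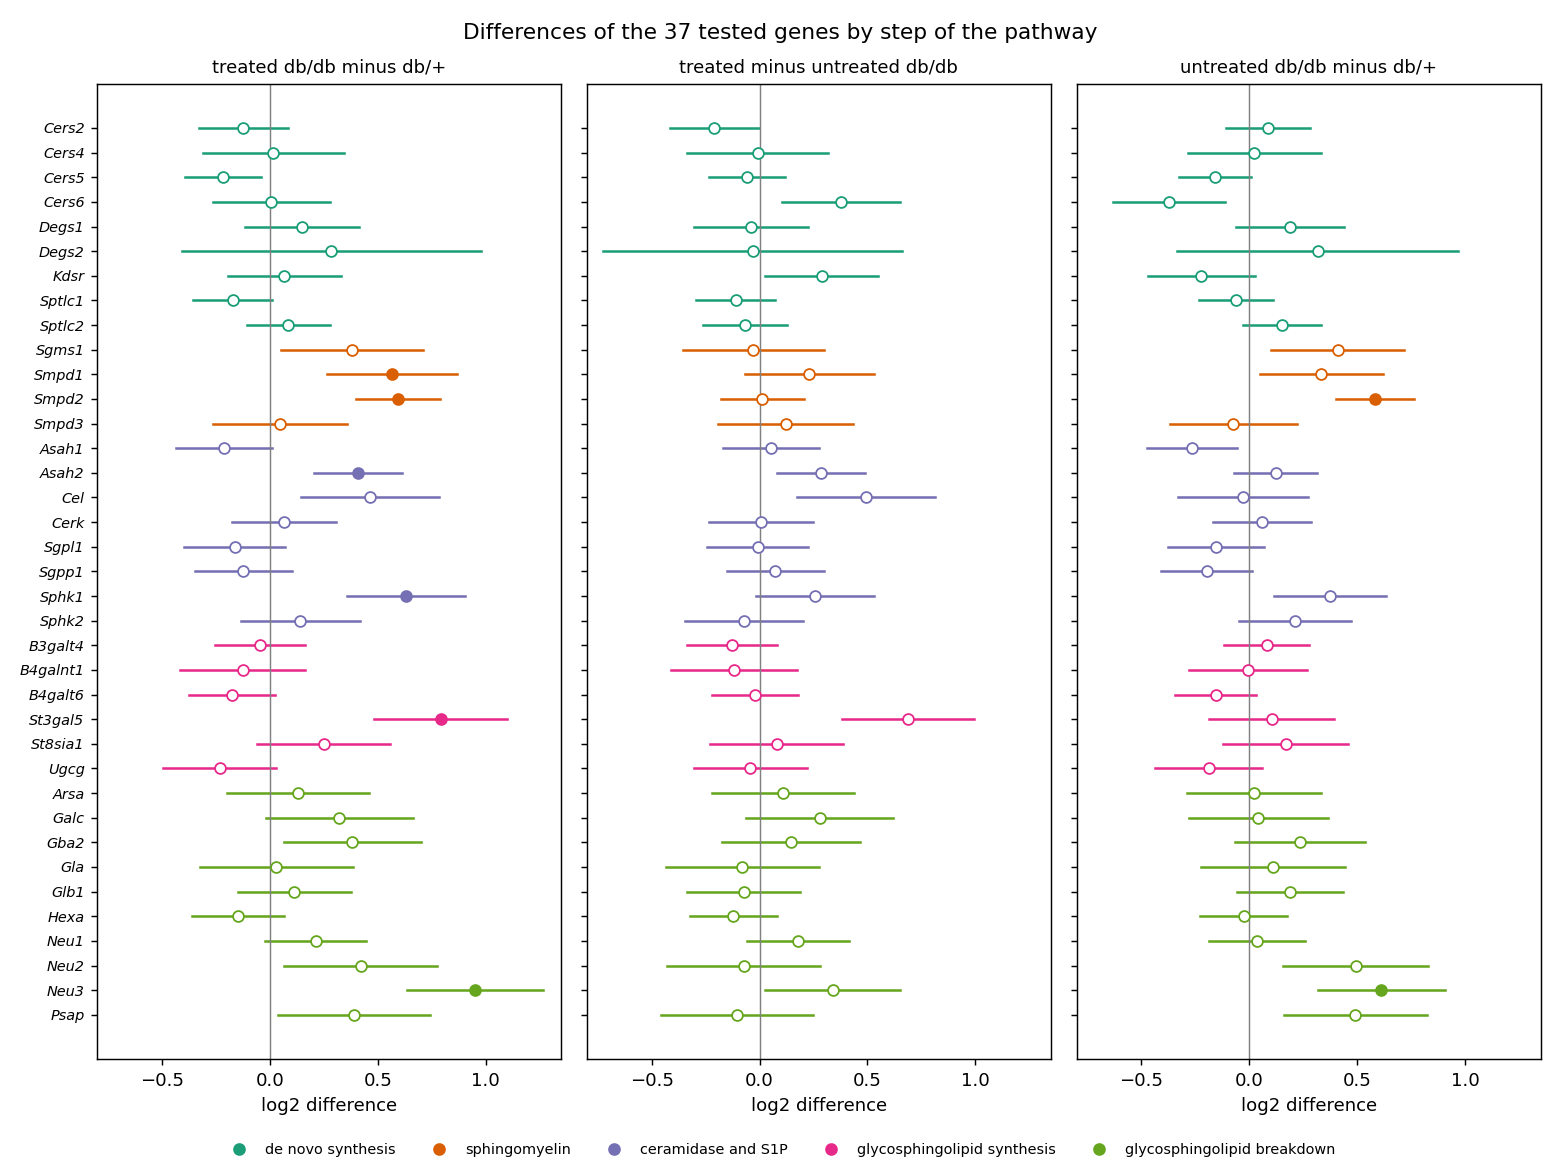
The log2 difference of each of the 37 tested genes (points) with its 95% interval (lines), for treated *db/db* minus *db/+* (left), treated minus untreated *db/db* (middle) and untreated *db/db* minus *db/+* (right). Colours mark the step of the pathway, and filled points are the genes with an adjusted p under 0.05, 6 on the left, 0 in the middle and 2 on the right.

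None of the 9 tested genes of de novo synthesis was called in any of the 3 comparisons. Over all probes 8.71% were called in treated and 7.76% in untreated hearts against *db/+*, and 0% in treated against untreated hearts. With 9 genes, 0 calls lies close to these shares. The same shares stand beside the counts of each later step. *Sptlc1* and *Sptlc2*, the serine palmitoyltransferase subunits, had differences of -0.17 and 0.08 in treated hearts against *db/+*, with 95% intervals of -0.36 to 0.01 and -0.11 to 0.28. *Degs1*, the desaturase that turns dihydroceramide into ceramide, differed by 0.15 (interval -0.12 to 0.41).

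Among the ceramide synthases, which differ in the fatty acid they attach, *Cers6* had the largest difference from *db/+* at the brightest probe. Its ratios were -2.40, -2.43, -2.51 and -2.47 in treated *db/db* hearts, -3.24, -2.74, -2.63, -2.65 and -2.89 in untreated *db/db* hearts, and -2.63, -2.57, -2.30, -2.26 and -2.54 in *db/+* hearts. The untreated hearts lay at or below the lowest *db/+* heart, and every treated heart lay above every untreated heart. The differences were 0.38 (standard error 0.13, adjusted p = 0.455) in treated against untreated hearts and -0.37 (standard error 0.12, adjusted p = 0.0725) in untreated against *db/+* hearts, so neither passed. *Cers2*, the other synthase whose treated and untreated hearts did not overlap, stood lower in treated hearts by a log2 difference of -0.21 (adjusted p = 0.566). *Kdsr*, the reductase of the second step, differed by 0.29 between treated and untreated hearts (adjusted p = 0.533). *Cers4* differed by 0.02 and *Degs2*, the other desaturase gene, by 0.29 in treated hearts against *db/+* (adjusted p = 0.961 and 0.609). *Cers5* differed by -0.22 in treated *db/db* against *db/+* hearts (adjusted p = 0.11).

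Among the steps of the list, the 4 tested genes of sphingomyelin synthesis and breakdown held the most calls for their number. They had 2 in treated *db/db* against *db/+* (8.71% of all probes) and 1 in untreated *db/db* against *db/+* (7.76% of all probes). Outside the list, 5 further sphingomyelin genes were tested and 0 were called in any comparison, so the count depends on which genes were listed. *Smpd2*, a neutral sphingomyelinase, had ratios of 1.66, 1.75, 1.80 and 1.76 in treated *db/db* hearts, 1.58, 1.69, 1.82, 1.74 and 1.82 in untreated *db/db* hearts, and 1.27, 1.25, 0.95, 1.07 and 1.21 in *db/+* hearts. Every *db/db* heart, treated or not, lay above every *db/+* heart, and the treated and untreated hearts overlapped. *Smpd2* was 1.51-fold higher in treated hearts than in *db/+* hearts (log2 difference 0.59, standard error 0.09, adjusted p = 0.00198). In untreated *db/db* against *db/+* hearts it was 1.5-fold higher (0.58, standard error 0.08, adjusted p = 0.00147), and on slide 2 alone the difference was 0.49. The interval of the difference between treated and untreated hearts was -0.18 to 0.21.

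*Smpd1* encodes acid sphingomyelinase, the lysosomal form. Its ratios were 2.21, 2.24, 2.28 and 2.34 in treated *db/db* hearts, 2.02, 1.89, 2.18, 2.18 and 1.92 in untreated *db/db* hearts, and 1.98, 1.63, 1.34, 1.51 and 2.07 in *db/+* hearts. All treated hearts lay above all hearts of the other groups, while untreated and *db/+* hearts overlapped. In treated *db/db* against *db/+* hearts *Smpd1* was 1.48-fold higher (0.57, standard error 0.14, adjusted p = 0.0257). The adjusted p was 0.131 in untreated *db/db* against *db/+* hearts (difference 0.33, and -0.04 on slide 2) and 0.69 in treated against untreated hearts (difference 0.23, and 0.18 on slide 3). The call in treated *db/db* against *db/+* hearts was lost without *db/+* replicate 4 (adjusted p = 0.0613), without treated replicate 1 (0.0574), 2 (0.0584) or 5 (0.0729), and in a fit of these 2 groups alone (0.0602).

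*Sgms1*, a sphingomyelin synthase, works in the other direction. At its brighter probe the ratios were 1.63, 1.27, 0.95 and 1.13 in treated *db/db* hearts, 1.25, 1.46, 1.03, 1.13 and 1.48 in untreated *db/db* hearts, and 0.62, 0.96, 1.17, 0.76 and 0.81 in *db/+* hearts. The groups overlapped, and the difference of 0.41 in untreated *db/db* against *db/+* hearts did not pass (standard error 0.14, adjusted p = 0.0939). At its second probe (A_52_P371154), 506 bases away, *Sgms1* read 1.58, 1.34, 1.16 and 1.13 in treated *db/db* hearts, 1.5, 1.51, 1.24, 1.16 and 1.51 in untreated *db/db* hearts, and 0.92, 1.04, 1.05, 1 and 1.08 in *db/+* hearts. There every *db/db* heart lay above every *db/+* heart, and the difference of 0.37 in untreated *db/db* against *db/+* hearts passed (standard error 0.10, adjusted p = 0.0481). *Smpd3*, the other neutral sphingomyelinase tested, was called at 0 of its 3 probes.

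Of the 8 tested genes that act on ceramide and sphingosine, 2 were called, both when treated hearts were set against *db/+*. *Sphk1*, which phosphorylates sphingosine to sphingosine-1-phosphate, had ratios of -1.99, -1.96, -1.89 and -2.10 in treated *db/db* hearts, -2.34, -2.26, -2.05, -2.31 and -2.26 in untreated *db/db* hearts, and -2.26, -2.55, -3.02, -2.61 and -2.65 in *db/+* hearts. Treated hearts lay above all *db/+* hearts, and untreated hearts overlapped both. *Sphk1* was 1.55-fold higher in treated hearts than in *db/+* hearts (0.63, standard error 0.13, adjusted p = 0.0103). With normexp background correction and loess the difference was -0.12 (adjusted p = 0.781). Processed that way, *db/+* replicates 1 and 3 read -1.17 and -0.90 for *Sphk1*, whereas the other *db/+* hearts read -2.43, -2.30 and -2.16. Treated replicate 3 stood apart too, at -2.44 against -1.87 to -1.76 in the other treated hearts, with a local heart background of 413 against 59 to 71 on all other arrays. Without it the *Sphk1* difference with normexp and loess was -0.04 (adjusted p = 0.935). At the second *Sphk1* probe the difference was 0.19 (adjusted p = 0.382). The isoform gene *Sphk2* differed by 0.14 (interval -0.13 to 0.42).

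*Asah2* encodes neutral ceramidase, which splits ceramide into sphingosine and a fatty acid. Together with *Cel*, *St3gal5* and *B4galnt1* it was singled out by the study on these same hearts, so the values of these 4 genes are not independent evidence. The study also lists real-time PCR assays for *Asah2*, *Cel* and *B4galnt1*. It reports that the 4 genes it selected for PCR were higher in treated than in untreated *db/db* mice. Its text does not list those genes by name, and its PCR values were not used here. At its brightest probe *Asah2* had ratios of 1.20, 1.22, 1.07 and 1.22 in treated *db/db* hearts, 0.86, 1.09, 0.81, 0.86 and 0.84 in untreated *db/db* hearts, and 0.85, 0.60, 0.92, 0.87 and 0.62 in *db/+* hearts. Treated hearts lay above all *db/+* hearts, and 1 untreated heart lay inside the treated range. *Asah2* was 1.33-fold higher in treated hearts than in *db/+* hearts (0.41, standard error 0.09, adjusted p = 0.0201). That call was lost without treated replicate 1, 2 or 5 (adjusted p = 0.0563, 0.0574 and 0.0604). In treated against untreated hearts the difference was 0.29 (standard error 0.09, adjusted p = 0.45), and on slide 3 it was 0.36.

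*Cel*, the bile salt-stimulated lipase of pancreas and milk, can also hydrolyse ceramide. Its ratios were 1.87, 1.82, 2.01 and 2.01 in treated *db/db* hearts, 1.29, 1.27, 1.62, 1.42 and 1.58 in untreated *db/db* hearts, and 1.48, 1.41, 1.52, 1.91 and 1 in *db/+* hearts. Treated and untreated hearts did not overlap, and *db/+* hearts overlapped both. The difference was 0.49 in treated against untreated hearts (standard error 0.15, adjusted p = 0.432) and 0.46 against *db/+* hearts (standard error 0.15, adjusted p = 0.0677). The mean level of the 6 tested of 8 other pancreatic acinar genes was 0.669 to 0.895 in treated, 0.534 to 1.08 in untreated and -0.0172 to 0.995 in *db/+* hearts. None of the 8 was below background on every array. Among them *Cela1*, a pancreatic-type elastase, was higher in treated hearts than in *db/+* hearts by 1.4 (adjusted p = 9.11e-05). It was also higher in untreated hearts than in *db/+* hearts by 0.93 (adjusted p = 0.00134), where *Cel* differed by -0.03. The rest of those tested were not called in treated hearts against *db/+*, with differences from -0.91 (*Cpa1*) to 0.86 (*Cpb1*). For 5 mammary epithelium genes, of which 3 were tested, the mean was 0.356 to 0.52 in treated, -1.92 to 0.048 in untreated and -1.43 to -0.335 in *db/+* hearts, *Csn2* was never above background, and *Csn1s1* was well above background on 5 treated, 3 untreated and 0 *db/+* arrays. *Csn1s1* thus passed the filter through the treated group alone, where it is highest, so its part in these means is no test. In treated against untreated hearts it differed by 2.69. *Wap*, well above background on 5 treated, 3 untreated and 3 *db/+* arrays, passed the filter in the same way and is also highest in treated hearts. Its difference of 0.241 is therefore given without a test, and it too weighs on the mammary means. *Csn3*, the other tested gene, differed by 0.435 and was not called (adjusted p = 0.776). The part of these cells in the *Cel* values was not tested.

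The remaining genes of this step moved little. *Asah1*, the lysosomal acid ceramidase, stood lower in untreated hearts than in *db/+* hearts by a log2 difference of -0.27 (adjusted p = 0.106). *Cerk*, ceramide kinase, *Sgpl1*, the lyase that ends the pathway, and *Sgpp1*, a sphingosine-1-phosphate phosphatase, had differences of 0.07, -0.16 and -0.12 in treated hearts against *db/+*, none past the threshold.

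**Figure D2:**
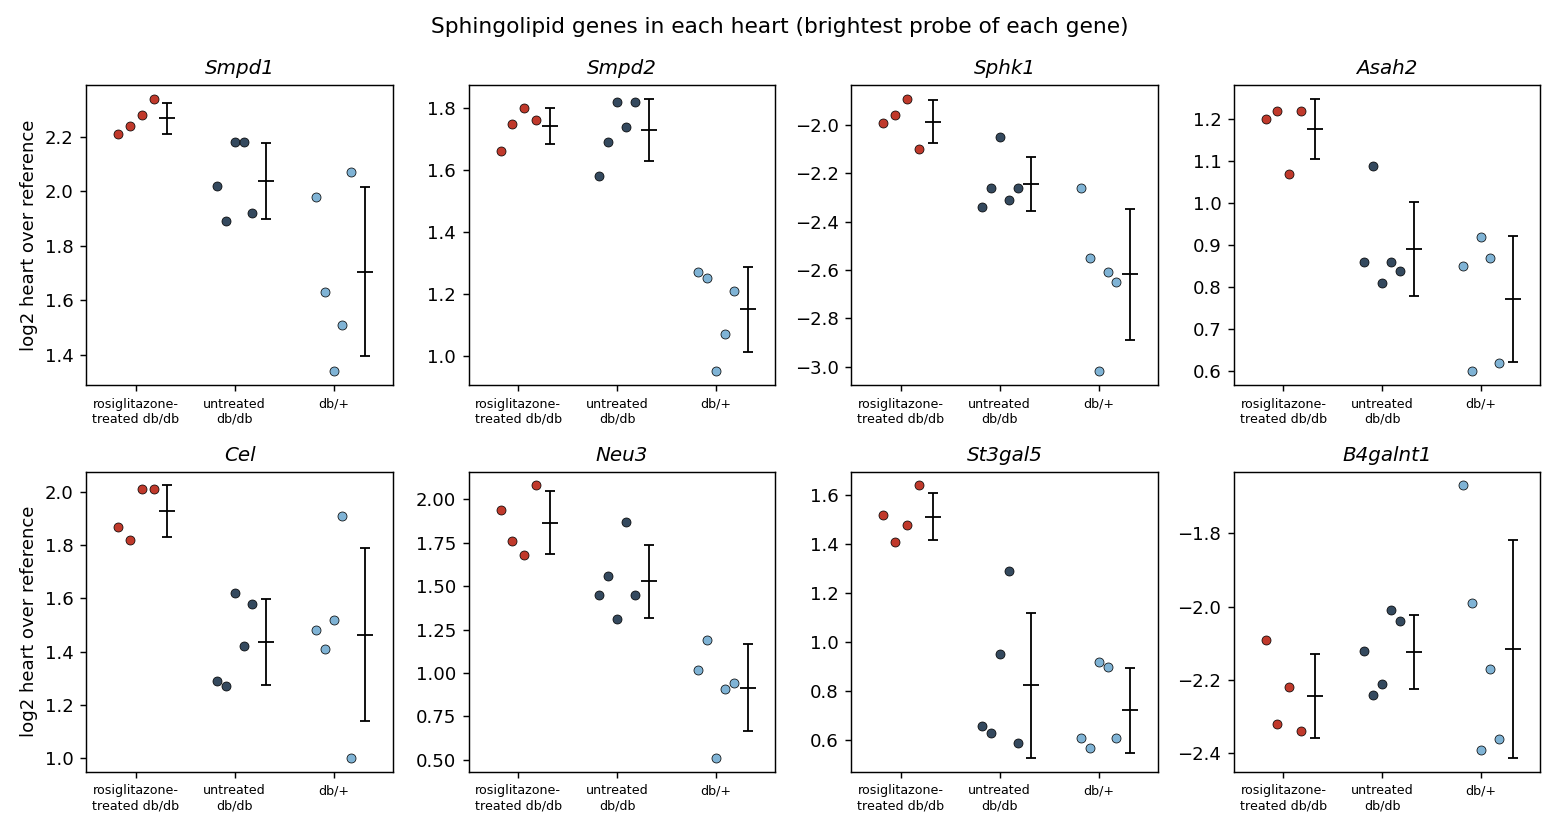
Log2 ratio of heart to reference at the brightest probe of 8 genes, 1 point per heart (treated replicates 3 and 4 averaged), with treated *db/db* hearts on the left, untreated *db/db* hearts in the middle and *db/+* hearts on the right of each panel, and bars for mean ± SD (n = 4, 5 and 5). Treated *St3gal5* values of 1.41 to 1.64 lie above all others, and all *db/db* values of *Smpd2* lie above all *db/+* values.

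In glycosphingolipid synthesis 1 of 6 tested genes was called, and only in treated *db/db* against *db/+* hearts. *St3gal5* encodes GM3 synthase, which adds the first sialic acid to lactosylceramide and so opens the ganglioside series. Its ratios were 1.52, 1.41, 1.48 and 1.64 in treated *db/db* hearts, 0.66, 0.63, 0.95, 1.29 and 0.59 in untreated *db/db* hearts, and 0.61, 0.57, 0.92, 0.90 and 0.61 in *db/+* hearts. All treated hearts lay above all others, and the untreated heart nearest to them was replicate 4. *St3gal5* was 1.73-fold higher in treated hearts than in *db/+* hearts (0.79, standard error 0.14, adjusted p = 0.00581). In treated against untreated hearts the difference was 0.69 (standard error 0.14), with an unadjusted limma p of 3e-04 and an adjusted p of 0.385. Without untreated replicate 4 it was 0.81 and passed (adjusted p = 0.0421). On slide 3, where 2 treated hearts met untreated replicates 4 and 5, it was 0.53. Untreated *db/db* and *db/+* hearts overlapped (0.10, interval -0.19 to 0.39). In the comparison of treated with untreated hearts, 4 of the 37 genes (*St3gal5*, *Cel*, *Cers6* and *Smpd1*) had all treated above all untreated hearts and *Cers2* alone had them below, against 2.08% and 2.5% of all probes. Among them *St3gal5* and *Cel* had been picked by the study on these same hearts.

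*B4galnt1*, the enzyme that extends GM3 to GM2, gave opposite readings at its 2 probes. At the brighter probe the ratios were -2.09, -2.32, -2.22 and -2.34 in treated *db/db* hearts, -2.12, -2.24, -2.21, -2.01 and -2.04 in untreated *db/db* hearts, and -1.67, -1.99, -2.39, -2.17 and -2.36 in *db/+* hearts. All groups overlapped there, with a difference of -0.12 between treated and untreated hearts (standard error 0.14, adjusted p = 0.874). At the second probe of *B4galnt1* they were -0.81, -0.90, -0.77 and -0.66 in treated *db/db* hearts, -1.36, -1.45, -1.19, -1.29 and -1.23 in untreated *db/db* hearts, and -0.84, -1.02, -1.48, -1.11 and -0.84 in *db/+* hearts. Every treated heart lay above every untreated heart at that probe, and the difference was 0.52, or 0.41 on slide 3. It did not pass in limma (standard error 0.12, unadjusted p = 0.000977, adjusted p = 0.385), and with normexp and loess it was 0.29. *Db/+* hearts overlapped both groups. The probe sequences are given because the reading depends on which of them is used. In each line the first 30 of 60 bases are printed, as the scanner files give them.
B4galnt1 brighter probe A_51_P233928: ccaagtgccaaagagcccagaaggactcta
B4galnt1 second probe A_52_P130972: ttgcctctgcttttacactagacgtttctt
The files place them on the plus strand of mouse build mm8, the brighter at chr10:126575065-126575124 and the second at chr10:126571310-126571369, 3755 bases apart. No annotation of that build was used, so which exon or untranslated region each lies in is not stated.

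*Asah2* also read differently from probe to probe. A second probe had a treated-minus-untreated difference of 0.27 (adjusted p = 0.741), on the same side as the brightest. The third probe, a dim one (A_52_P56792) gave -0.30, 0.02, 0.43 and -0.08 in treated *db/db* hearts, 0.72, 0.45, 0.94, 0.75 and 0.40 in untreated *db/db* hearts, and 0.02, -0.69, -0.58, -0.26 and -0.09 in *db/+* hearts. It was well above background on only 2 treated, 4 untreated *db/db* and 2 *db/+* arrays of 5 each, so it entered the test through the untreated group alone, where it is highest, and its differences are given without a test. They were -0.64 in treated against untreated hearts and 0.97 in untreated hearts against *db/+*. With normexp and loess they were -0.14 and 0.12 at this *Asah2* probe. The first 30 bases of the 3 tested *Asah2* probes are shown because they decide which reading the gene gets.
Asah2 brightest probe A_52_P436643: aggaggaaaccgaacttcatttcaagactg
Asah2 second probe A_52_P105509: aacccgctgtcatactagcatttgaaggaa
Asah2 dim probe A_52_P56792: atatggctctctgtatcgaagagacaatgt
They lie on the minus strand of chromosome 19 in mm8, at chr19:32051213-32051272, chr19:32052757-32052816 and chr19:32112176-32112235. The dim probe is 60963 bases from the brightest, upstream on that strand. The last of the 4 *Asah2* probes was too dim to test.

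**Figure D3:**
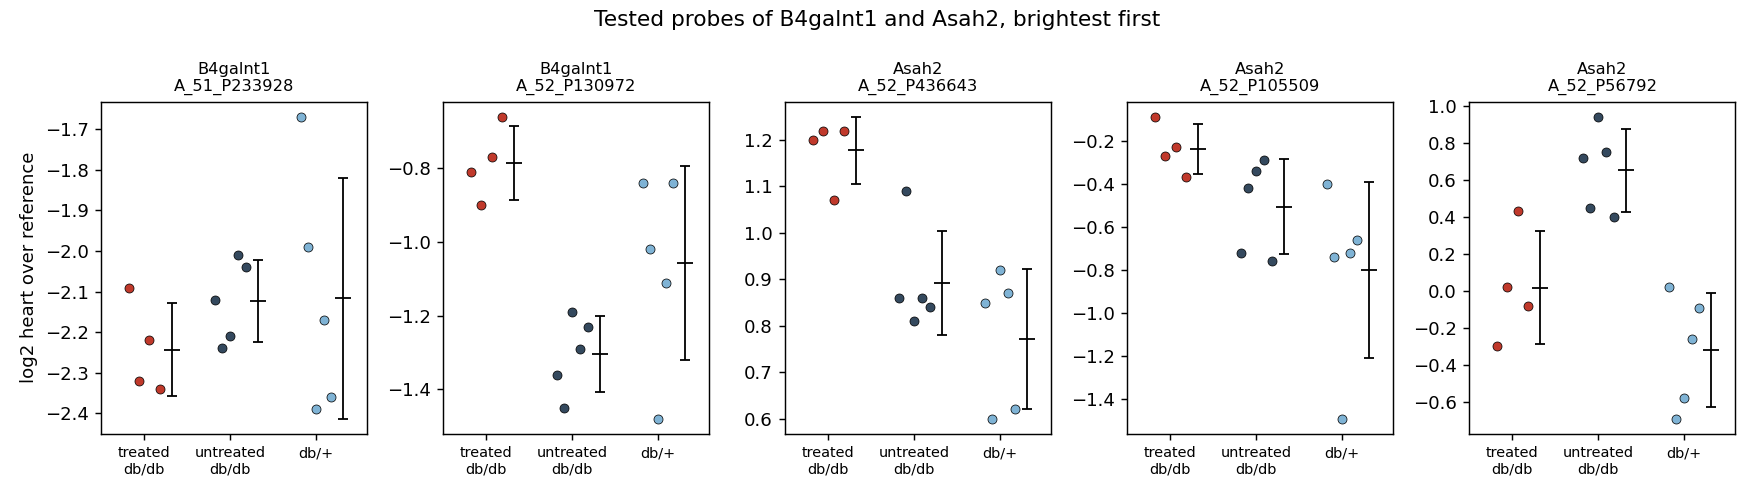
Log2 ratio of heart to reference at the 2 tested probes of *B4galnt1* and the 3 of *Asah2*, 1 point per heart, with treated *db/db* hearts on the left, untreated *db/db* hearts in the middle and *db/+* hearts on the right, and bars for mean ± SD (n = 4, 5 and 5). The treated-minus-untreated difference is -0.12 and 0.52 at the *B4galnt1* probes, and 0.29, 0.27 and -0.64 at the *Asah2* probes, the last of them dim.

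Of the 16 genes with more than 1 tested probe, 8 had probes on opposite sides of 0 in treated against untreated hearts, 4 in treated hearts against *db/+* and 7 in untreated hearts against *db/+*. The other synthesis genes were *Ugcg*, glucosylceramide synthase, *B4galt6*, a lactosylceramide synthase, *St8sia1*, GD3 synthase, and *B3galt4*, GM1 synthase. Their differences in treated *db/db* against *db/+* hearts were -0.23, -0.17, 0.25 and -0.05, and none passed. All 3 *Ugcg* probes stood on the lower side, at -0.23, -0.25 and -0.25 (adjusted p = 0.241, 0.137 and 0.278).

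Glycosphingolipid breakdown had 10 tested genes, and 1 of them, *Neu3*, was called against *db/+* in both *db/db* groups. *Neu3* is the sialidase of the plasma membrane, which removes sialic acid from gangliosides. Its ratios were 1.94, 1.76, 1.68 and 2.08 in treated *db/db* hearts, 1.45, 1.56, 1.31, 1.87 and 1.45 in untreated *db/db* hearts, and 1.02, 1.19, 0.51, 0.91 and 0.94 in *db/+* hearts. Every *db/db* heart lay above every *db/+* heart, and the treated hearts overlapped the untreated only through untreated replicate 4. *Neu3* was 1.93-fold higher in treated hearts than in *db/+* hearts (0.95, standard error 0.15, adjusted p = 0.00215), the largest difference among the 37 genes. In untreated *db/db* against *db/+* hearts it was 1.53-fold higher (0.61, standard error 0.14, adjusted p = 0.018), and 0.50 on slide 2. The difference between treated and untreated hearts was 0.34 (adjusted p = 0.538), and 0.19 on slide 3. The probes behind *Neu3*, *St3gal5* and *Smpd2*, the 3 genes with the smallest p-values in treated hearts against *db/+*, begin as follows, again with 30 of 60 bases.
Neu3 probe A_52_P357611: aaacttgtgaatgtttgaattagacactac
St3gal5 probe A_51_P483473: cttccaaatcatctaagtgttatttaaggc
Smpd2 probe A_51_P234421: acatctactttgcacaccgtgtggcccaag
In mm8 they lie at chr7:99685526-99685585 on the minus strand, chr6:72083919-72083978 on the plus strand and chr10:41176720-41176902 on the minus strand. The *Smpd2* interval spans 183 bases for a probe of 60. Each of the 3 genes had 1 probe on the array, so no second probe bears on its value.

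The other sialidases and the sphingolipid activator stayed short of the threshold. *Neu2*, the cytosolic sialidase, had ratios of 0.66, 0.60, 0.52 and 0.42 in treated *db/db* hearts, 0.93, 0.09, 0.38, 0.82 and 0.91 in untreated *db/db* hearts, and 0.40, 0.13, 0.15, 0.06 and -0.08 in *db/+* hearts. Treated hearts lay above all *db/+* hearts, and 2 of the 5 untreated hearts lay inside the *db/+* range. The differences of *Neu2* from *db/+* were 0.42 in treated (adjusted p = 0.124) and 0.49 in untreated hearts (adjusted p = 0.068). *Psap*, whose product is cut into the saposins that help lysosomal enzymes reach their lipids, had differences of 0.39 (adjusted p = 0.148) and 0.49 (adjusted p = 0.0671) in the same order. On slide 2 alone the untreated difference was -0.01 at both *Psap* probes. *Neu1*, the lysosomal sialidase, differed from *db/+* by 0.21 in treated (adjusted p = 0.232) and 0.03 in untreated hearts (adjusted p = 0.87).

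The other genes of this step were not called. *Gba2*, a glucosylceramidase outside the lysosome, differed by 0.38 in treated *db/db* against *db/+* hearts (adjusted p = 0.119) and *Galc*, galactosylceramidase, by 0.32 (adjusted p = 0.213), with 0.65 and 0.03 at its other probes (adjusted p = 0.0853 and 0.96). *Hexa*, *Glb1*, *Gla* and *Arsa*, lysosomal enzymes whose loss causes sphingolipid storage diseases in people, had differences of -0.15, 0.11, 0.03 and 0.13, with 95% intervals that lay between -0.36 and 0.46. The *Hexa* spot of *db/+* replicate 4 carried an outlier flag and was left out.

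**Figure D4:**
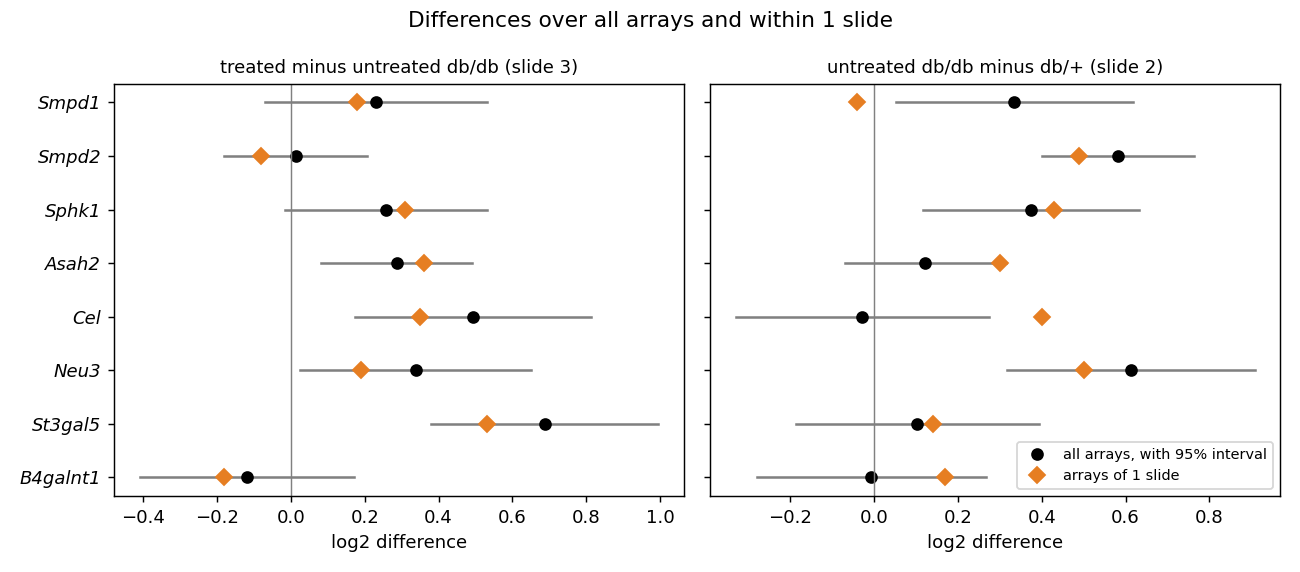
Log2 differences of 8 genes over all arrays (black points, with 95% intervals as grey lines) and from the arrays of a single slide (orange diamonds), for treated minus untreated *db/db* on slide 3 with 2 hearts each (left) and untreated *db/db* minus *db/+* on slide 2 with 3 and 1 hearts (right). On slide 2 *Smpd2*, *Neu3* and *Sphk1* stay at 0.49, 0.50 and 0.43, whereas *Smpd1* is at -0.04.

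With slide as a fixed block 0 of the 37 genes were called in any comparison, and the second *Sgms1* probe lost its call too (0.34, adjusted p = 0.734). The differences of the 6 genes in treated *db/db* against *db/+* hearts were then 0.69 for *Neu3*, 0.67 for *St3gal5*, 0.74 for *Sphk1*, 0.41 for *Smpd2*, 0.14 for *Smpd1* and 0.66 for *Asah2*, so *Smpd1* kept least. Since no slide held both groups, each of these values is the slide 2 difference plus the slide 3 difference. They rest on 1 *db/+* heart and on treated replicates 1 and 2, and are no further check beside the within-slide values. The hearts of slides 1 and 4 add nothing to them. In that fit 4 probes of the whole array were called in this comparison.

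Outside the 39 genes, 35 of 52 further genes of the pathway were tested. In treated *db/db* against *db/+* hearts *Acer2*, an alkaline ceramidase, was higher (0.62, adjusted p = 0.0289), and *Ormdl2*, of the family that restrains serine palmitoyltransferase (-0.44, adjusted p = 0.0198), and *Gm2a*, the GM2 activator protein (-0.31, adjusted p = 0.0457), were lower. In untreated *db/db* against *db/+* hearts *S1pr1*, a sphingosine-1-phosphate receptor (0.61, adjusted p = 0.0286), *Acer2* (0.57, adjusted p = 0.0339) and *St6galnac6*, a sialyltransferase (0.32, adjusted p = 0.0174), were higher. That makes 3 of the 35 higher, against 4.37% of all probes. In treated against untreated hearts 0 of the 35 were called, as were 0% of all probes. At an unadjusted p under 0.05 in limma 1 of the 35 passed, against 8.78% of all probes. Of 23 lysosomal genes outside the pathway, 1 was called against *db/+* in each *db/db* group, *Galns*, a lysosomal sulfatase, at 0.49 in treated (adjusted p = 0.00886) and 0.45 in untreated hearts (adjusted p = 0.0103), and 0 in treated against untreated hearts. This is 4.35% of the 23 in each *db/db* group, against 8.71% of all probes in treated and 7.76% in untreated hearts.

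Markers of other cells differed between the same groups. For scale, 8.71% of all probes were called against *db/+* in treated and 7.76% in untreated hearts. Cardiomyocyte genes were high in all hearts (mean 6.19 to 6.53 in treated, 5.05 to 7.02 in untreated and 3.72 to 7.48 in *db/+* hearts). Of the B cell genes 3 of 4 tested were lower than in *db/+* in both *db/db* groups (mean -2.63 to -2.29 in treated, -2.86 to -2.39 in untreated and -1.95 to -1.5 in *db/+* hearts), as were 2 of 4 adipocyte genes (-0.289 to 0.284, -0.0569 to 1.9 and 1.56 to 2.74 in the same order, with *Lep* never above background). Both called adipocyte genes, *Adipoq* and *Cfd*, passed the filter through the *db/+* group alone, where they are highest. Their calls are therefore no test, and they weigh on the adipocyte means. The others tested, *Cidec* and *Plin1*, were not called. T cell genes were lower for 2 of 6 in treated and 1 of 6 in untreated hearts (-1.3 to -0.9, -1.35 to -0.706 and -0.862 to -0.305). Of these *Cd247*, called in both, also passed the filter through *db/+* alone, and *Cd3d* was the other call in treated hearts. *Trat1*, and *Cd79a* of the B cell genes, passed the filter through the treated group alone, where they are highest, and were not called. Hepatocyte genes were higher than in *db/+* for 1 of 7 in treated and 4 of 7 in untreated hearts (1.36 to 3.85, 2.44 to 5.79 and 0.503 to 2.21). *Fgg* passed the filter through the untreated group alone, where it is highest, and was not called, but it weighs on the hepatocyte means. Of the pancreatic acinar genes, *Cel* included, 1 of 7 was higher in each *db/db* group. Of the mammary genes 1 of 3 was higher in treated hearts (*Csn1s1*, which like *Wap* passed the filter through the treated group alone). None of the endothelial, fibroblast, macrophage, neutrophil, Schwann cell or erythroid genes was called against *db/+*, and no list had a call in treated against untreated hearts. Macrophage means were 2.33 to 2.62 in treated, 1.95 to 2.79 in untreated and 2.2 to 2.85 in *db/+* hearts. The fibroblast means of treated hearts lay below those of *db/+* hearts (-0.531 to -0.357 in treated, -0.636 to 0.137 in untreated and -0.207 to 0.22 in *db/+* hearts). The part of these cells in the sphingolipid values was not tested.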

How the data were processed

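Per the labels and file headers, the authors hybridised heart (Cy5) and reference (Cy3) RNA, without a dye swap, and read each channel's intensity with Agilent Feature Extraction 9.5.1.1, with background subtraction and LOWESS dye normalization. The log10 ratio the authors deposited was turned to log2, 6002 spots with an outlier flag and all control spots were left out, and spots of a probe were averaged. The series' own table repeats these log10 ratios. Tested were 27590 probes whose heart signal was well above background on at least 4 arrays of a group. A single limma 3.58.1 fit (R 4.3.3, the data.table package at 1.17.8) covered the 14 samples, and p-values were adjusted by Benjamini and Hochberg's method over all tested probes. The number of arrays limits the precision. SAM, which the study used, was not run, since it rests on regrouping the samples.

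The genes, the lists of other pathway, lysosomal and marker genes, and the tests were chosen with earlier results of these data known. Given in full are genes with a called probe and the 4 genes the study singled out. Of the others, up to 3 examples a step were planned, and those named beyond that, among them *Cers6* and *Neu2*, were chosen after their values were seen. Alternatives covered background correction, scaling, filters, slide, replicate number, weights, samples fitted and left out, and the threshold. Keeping flagged spots, and leaving out *db/+* replicate 3 with untreated replicate 2, were added after seeing the data. The steps were tested on simulated data. Figures were drawn with Python 3.11.15 and matplotlib 3.10.9. Pathway genes were matched with the array's names or RefSeq accessions. Values of the study's own tests were not used. The result of 1 further pathway gene is not reported here.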

Additional observations from a re-analysis of the deposited data

Results flagged for a closer look

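Over the 37 tested genes and 3 groups, 111 sets of hearts were searched for a single value far from the rest by Dixon's test, which by chance marks about 1 set in 20, and 7 were marked. In treated *db/db* hearts the averaged replicates 3 and 4 were lowest for *Asah2*, at 1.07 against 1.20 for the next. In untreated *db/db* hearts replicate 2 was highest for *Asah2*, at 1.09 against 0.86, highest for *Arsa*, at -1.68 against -1.94, and lowest for *St8sia1*, at 0.97 against 1.46. Untreated *db/db* replicate 3 was highest for *Sphk1*, at -2.05 against -2.26. In *db/+* hearts replicate 3 was lowest for *Degs2*, at -2.24 against -0.97, and for *B3galt4*, at -0.50 against -0.15.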

How the results depend on the processing

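Treated against untreated *db/db* hearts had 0 sphingolipid genes called under every setting but 1, in which *St3gal5* passed (0 to 1 over the arrays left out in turn). For untreated *db/db* against *db/+* the 2 genes became 7 with normexp and loess (6 higher, 1 lower), 4 with the stricter filter on dim probes, 0 with slide as a fixed block, 9 with slide as a random block (7 higher, 2 lower, at a consensus correlation of -0.114), 7 at an adjusted p under 0.10 (6 higher, 1 lower), 4 when any probe could call a gene (the dim *Asah2* probe among them), and 2 to 4 when each array was left out, the 4 being without *db/+* replicate 1. For treated *db/db* against *db/+* the 6 genes became 0 with slide as a fixed block and 4 to 7 when each array was left out. The cause was not tested. Among the 12 differences followed through every setting (those called at the brightest probe, and the study's 4 genes in treated against untreated hearts), 2 changed sign, both with normexp and loess. They were *Sphk1* in treated *db/db* against *db/+* (-0.12) and *B4galnt1* in treated against untreated hearts (0.024). Over the 37 genes, normexp and loess changed the sign of 9 differences in treated hearts against *db/+*, 5 in treated against untreated hearts and 10 in untreated hearts against *db/+*, and slide as a fixed block that of 6, 9 and 13. Of all these, only that of *Sphk1* had been called. *Neu3* in untreated *db/db* against *db/+* also lost its call without *db/+* replicate 3 and untreated replicate 2 together (0.50, adjusted p = 0.0533).

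Over all probes, the 2141 and 2402 calls of untreated and treated *db/db* against *db/+* became 34 and 4 with slide as a fixed block, 5040 and 5127 as a random block, and 1186 to 2743 and 1093 to 2885 when each array was left out. Fitting only the groups compared gave 925 in the first comparison, normexp and loess 1475 and separate treated replicates 3 and 4 3753 in the second. Treated against untreated hearts went to at most 14, without untreated replicate 4. With normexp and loess 69% and 69.4% of these calls were higher, where the deposited ratios gave 56.3% and 51.6%. Aquantile scaling, which leaves log ratios as they are, and the series' own table gave the same counts.

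The replicate numbers did not pair the hearts, since 1 of the 5 same-numbered pairs correlated above 0.1 in treated against untreated hearts and 0 in the other comparisons, and 1, 0 and 0 hearts correlated best with their own number. A fit with the replicate number as a block, in which treated replicates 3 and 4 stayed separate, called 2 sphingolipid genes in untreated hearts against *db/+*, 0 in treated against untreated hearts and 6 in treated hearts against *db/+*, so it changed no call.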
